A study of Rattus norvegicus with 97 samples.

Results

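The P and NP lines of rat form 1 of the 5 line pairs of a series on selective breeding for high or low alcohol consumption, and their arrays were taken by the line pair named in each sample's title. That gave 20 arrays of the 97 in the series, 10 from alcohol-preferring P rats and 10 from non-preferring NP rats, each hybridised with RNA of 1 animal's nucleus accumbens shell. The labels give neither the sex, the age nor the alcohol exposure of the animals. The other 4 pairs, each with the preferring line first, are HAD1/LAD1, HAD2/LAD2, AA/ANA and sP/sNP. Differences are P minus NP on the log2 scale of the deposited signals, each with its standard error where one is given, and "called" means an adjusted p under 0.05 in limma, with the adjustment over all 31042 probe sets.

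The nucleus accumbens shell is the ventral, limbic part of the striatum, where dopamine from the midbrain meets glutamate from cortex, hippocampus and amygdala. Most of its neurons are GABAergic medium spiny neurons, and the region is known for its part in reward, feeding and the self-administration of drugs and alcohol. P and NP rats were bred for opposite alcohol intake from a Wistar-derived stock and are a common animal model of inherited alcohol preference. Lines kept apart for many generations also differ at loci that have nothing to do with the trait, so a difference between 1 pair of lines does not by itself say which loci matter for drinking.

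Spiny neuron markers were bright on most arrays of both lines. Drd1, the D1 dopamine receptor, had a lowest, median and highest signal of 8.93, 13.23 and 13.72 in P rats and of 11.77, 13.16 and 13.68 in NP rats. Penk, the precursor of the enkephalins, had 13.13, 14.32 and 14.71 in P rats and 13.42, 14.30 and 14.71 in NP rats. Spiny neuron markers exceeded markers of the neighbouring pallidum, septum and basal forebrain, as means over each list, by 2.44 ± 1.53 in P rats and 2.68 ± 1.005 in NP rats (SD, n = 10 each). The lowest value, -0.35, belonged to P 5, an array whose pallidal and septal markers were as bright as its spiny neuron markers, and the lowest NP value was 1.392. Xist was at most 4.52 in P rats and 4.71 in NP rats while the Y-linked Eif2s3y was at least 10.81 in P rats and 10.54 in NP rats, so no array of either line stood apart on sex-linked transcripts.

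One array of each line did not keep to its line. On the 50 probe sets with the clearest line difference among the remaining animals, scored so that 0 is the NP median and 1 the P median, the array labelled P 9 scored 0.463 and the array labelled NP 9 scored 1.05. The remaining P arrays scored between 0.871 and 1.01, and the remaining NP arrays between -0.0805 and 0.0757. The array labelled NP 9 lay near the P median on 47 of the 50 probe sets and near the NP median on 0, whereas the array labelled P 9 lay between the lines on 31. The counts of calls, and most of the named differences, are therefore given with all 20 arrays and also without these 2, and of the 48 named calls 47 held without them. Because the score uses the line difference itself, larger differences without them are no independent evidence.

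**Figure D1:**
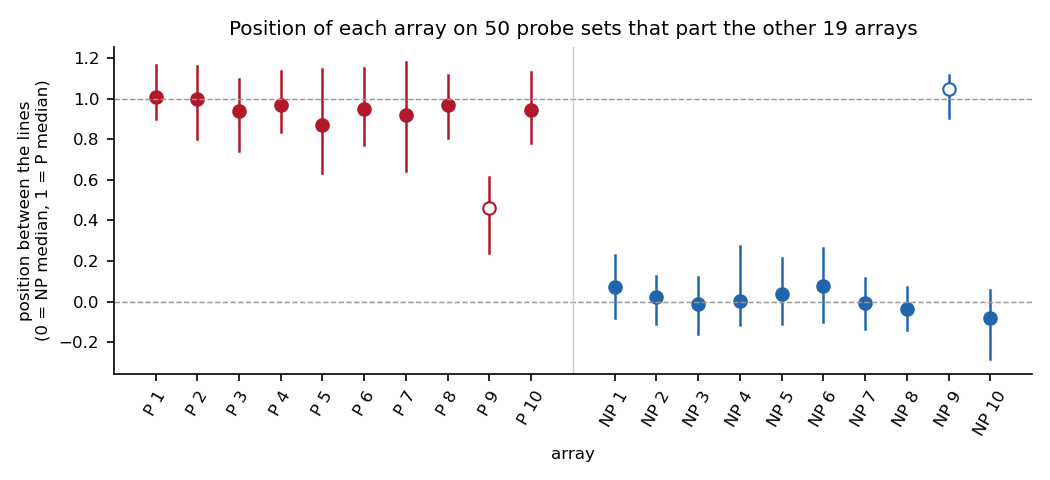
Position of each array between the NP median (0) and the P median (1), on a unitless scale, as the median over 50 probe sets with bars for the quartiles over those probe sets, P arrays left of NP arrays. The array labelled P 9 (open circle) lies at 0.463 and the array labelled NP 9 (open circle) at 1.05, among the P arrays.

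Of 31042 probe sets, 326 (1.05%) were called with all 20 arrays, 188 (0.606%) higher and 138 (0.445%) lower in P rats. The called differences had a median size of 0.49 on the log2 scale, the smallest being 0.15 and the largest 2.92. In 48 (0.155%) the difference was at least 2-fold, 23 higher (0.0741%) and 25 lower (0.0805%) in P rats. The lines did not overlap on any array in 13 called probe sets (0.0419%), 8 of which carry 1 gene symbol. The largest named one was Spint1, a membrane-bound inhibitor of serine proteases, with 7.87 to 9.07 in P rats and 6.95 to 7.79 in NP rats (difference 0.93). Without the arrays labelled P 9 and NP 9, 661 (2.129%) were called, 368 (1.19%) higher and 293 (0.944%) lower in P rats, and 203 of these (0.654%) parted the lines completely. Of the 326, 318 were called in the same direction without both arrays and 299 (91.7%) had a larger difference. Leaving out NP 9 alone gave 552 calls, and P 9 alone 443.

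**Figure D2:**
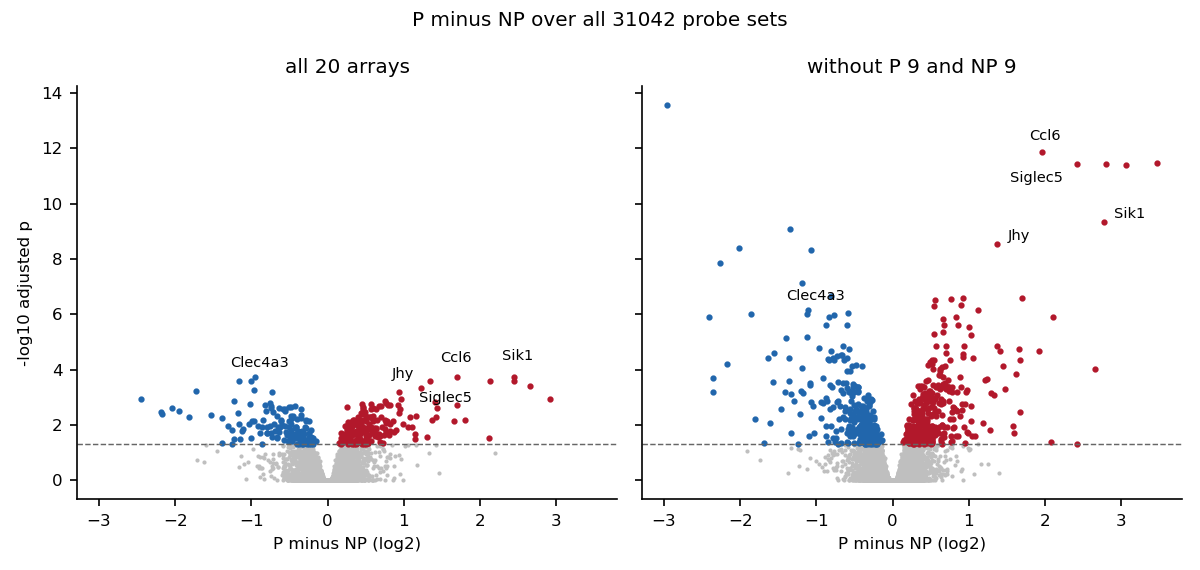
Difference P minus NP (log2, x axis) against the strength of evidence (-log10 of the adjusted limma p, y axis) for 31042 probe sets, with all 20 arrays on the left and without P 9 and NP 9 on the right; coloured points are called. The number of called probe sets is 326 in the left panel and 661 in the right one.

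Sik1, a salt-inducible kinase that phosphorylates and so holds back the coactivators of the transcription factor CREB, had the largest difference of any named gene. One of its probe sets had a lowest, median and highest signal of 7.52, 8.66 and 9.13 in P rats and of 5.49, 5.90 and 8.02 in NP rats. The single low P array, at 7.52, was the one labelled P 9 and the single high NP array, at 8.02, was the one labelled NP 9. The signal was 5.45-fold higher in P rats (difference 2.45 ± 0.26, adjusted p = 0.000182, limma), and 6.85-fold higher without both arrays (2.78 ± 0.14, adjusted p = 4.72e-10), where P rats spanned 8.11 to 9.13 and NP rats 5.49 to 6.33. The gene's other probe set did not follow: its median was 8.28 in P rats and 8.34 in NP rats, a difference of 0.02. Among the 34 measured genes of CREB, salt-inducible kinase and immediate early signalling, where the brightest probe set stands for each gene, 0 were called by limma, against 2 at an unadjusted p under 0.05. Creb1 differed by -0.38 (adjusted p = 0.58) and Sik3 by -0.07, and the highest difference in the list was 0.52.

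Siglec5, a sialic acid-binding receptor of leukocytes, had a lowest, median and highest signal of 7.52, 7.72 and 8.07 in P rats and of 5.01, 5.43 and 7.99 in NP rats. Apart from NP 9 at 7.99, no NP array exceeded 5.71. The signal was 4.37-fold higher in P rats (2.127 ± 0.26, adjusted p = 0.000262), and 5.33-fold without both arrays (2.42 ± 0.09, adjusted p = 3.58e-12).

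The promoters of Sik1 and Siglec5, the largest named differences with all 20 arrays, are shown with those of Ctss and Sp110, immune genes that differed in opposite directions without P 9 and NP 9 and are taken up below. They are RefSeq sequences of build GRCr8, 250 bases each, read 5′ to 3′ on the gene's strand, and the windows come from a table of rat genes of that build. Sik1 lies at chr20:9958647-9958896 (minus strand), Siglec5 at chr1:102904656-102904905 (plus strand), Ctss at chr2:185775146-185775395 (plus strand) and Sp110 at chr9:93670660-93670909 (minus strand). Capitals mark matches, on either strand, to the cyclic AMP response element half-site TGACG, the PU.1 site core GAGGAAGT or the interferon regulatory factor core GAAANNGAA.
Sik1: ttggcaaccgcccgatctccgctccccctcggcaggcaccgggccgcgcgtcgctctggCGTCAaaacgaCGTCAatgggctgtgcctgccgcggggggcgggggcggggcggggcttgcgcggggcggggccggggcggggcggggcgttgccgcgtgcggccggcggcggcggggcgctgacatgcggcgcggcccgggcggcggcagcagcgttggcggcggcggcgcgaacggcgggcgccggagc
Siglec5: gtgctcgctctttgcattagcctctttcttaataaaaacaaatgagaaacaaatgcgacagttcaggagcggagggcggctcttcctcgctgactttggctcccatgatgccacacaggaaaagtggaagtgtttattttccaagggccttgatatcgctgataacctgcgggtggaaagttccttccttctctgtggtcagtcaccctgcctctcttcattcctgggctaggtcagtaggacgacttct
Ctss: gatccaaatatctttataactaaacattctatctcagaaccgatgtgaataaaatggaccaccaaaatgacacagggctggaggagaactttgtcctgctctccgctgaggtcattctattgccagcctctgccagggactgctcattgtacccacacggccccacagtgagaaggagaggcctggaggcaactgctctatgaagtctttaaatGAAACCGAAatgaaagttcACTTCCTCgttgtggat
Sp110: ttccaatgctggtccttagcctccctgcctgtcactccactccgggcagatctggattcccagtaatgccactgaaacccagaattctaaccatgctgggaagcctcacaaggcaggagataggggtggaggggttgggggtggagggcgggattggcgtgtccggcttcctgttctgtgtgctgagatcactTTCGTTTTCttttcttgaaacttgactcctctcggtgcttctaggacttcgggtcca
The Sik1 window holds 2 matches to TGACG, both on the opposite strand, a motif found in 18.2% of 33469 rat promoter windows. The Ctss window holds 1 match each to GAAANNGAA and GAGGAAGT, found in 8.12% and 2.04% of windows, and the Sp110 window 1 match to GAAANNGAA. These matches describe the letters only, and the Siglec5 window has none of the 3 motifs.

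Other signalling genes differed in both directions. Adgrg6, an adhesion receptor coupled to cyclic AMP that is needed for myelination by Schwann cells, had a lowest, median and highest signal of 7.01, 7.73 and 8.71 in P rats and of 5.40, 5.77 and 7.62 in NP rats. The lines overlapped between 7.01 and 7.62, and here the array labelled P 9 was the highest of its line. The signal was 3.15-fold higher in P rats (1.66 ± 0.30, adjusted p = 0.00704), and the second probe set rose by less (0.53, adjusted p = 0.0456, or 0.0549 without both arrays). Trio, an exchange factor that activates Rac1 and RhoA, had 9.9998, 11.17 and 11.48 in P rats and 8.24, 9.69 and 11.15 in NP rats, with P 9 the lowest P array and NP 9 the highest NP array. It was 2.59-fold higher in P rats on that probe set (adjusted p = 0.0066, and a difference of 1.66 without both arrays, adjusted p = 1.86e-05), whereas the other probe set differed by -0.05.

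Camkk2, the calcium-calmodulin kinase kinase upstream of AMPK and CaMKIV, was lower in P rats, with 6.27, 7.63 and 8.38 in P rats and 7.70, 8.87 and 9.94 in NP rats. Its probe set fell 2.61-fold in P rats (difference -1.38 ± 0.33, adjusted p = 0.0456, or 0.00885 without both arrays), while the gene's other probe set differed by 0.43 in the other direction (adjusted p = 0.316). Rab27b, a small GTPase of secretory vesicles, had 8.49, 9.04 and 9.99 in P rats and 8.90, 10.41 and 10.84 in NP rats. The lowest NP array was NP 9, and the signal was 2.171-fold lower in P rats (-1.12, adjusted p = 0.0172, and -1.36 without both arrays, adjusted p = 0.000264), while its other probe set differed by -0.26 (adjusted p = 0.638). Crebl2, a basic leucine zipper protein related to CREB, had 8.73, 9.35 and 10.03 in P rats and 9.90, 10.34 and 10.81 in NP rats, 1.95-fold lower in P rats (-0.96, adjusted p = 0.00727, and -1.07 without both arrays, adjusted p = 0.00151), and its other probe set differed by -0.07. Rnf182, a ubiquitin ligase, differed by -1.15 on 1 probe set (adjusted p = 0.0324, and -1.41 without both arrays, adjusted p = 0.000634) and by -0.15 on the other.

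**Figure D3:**
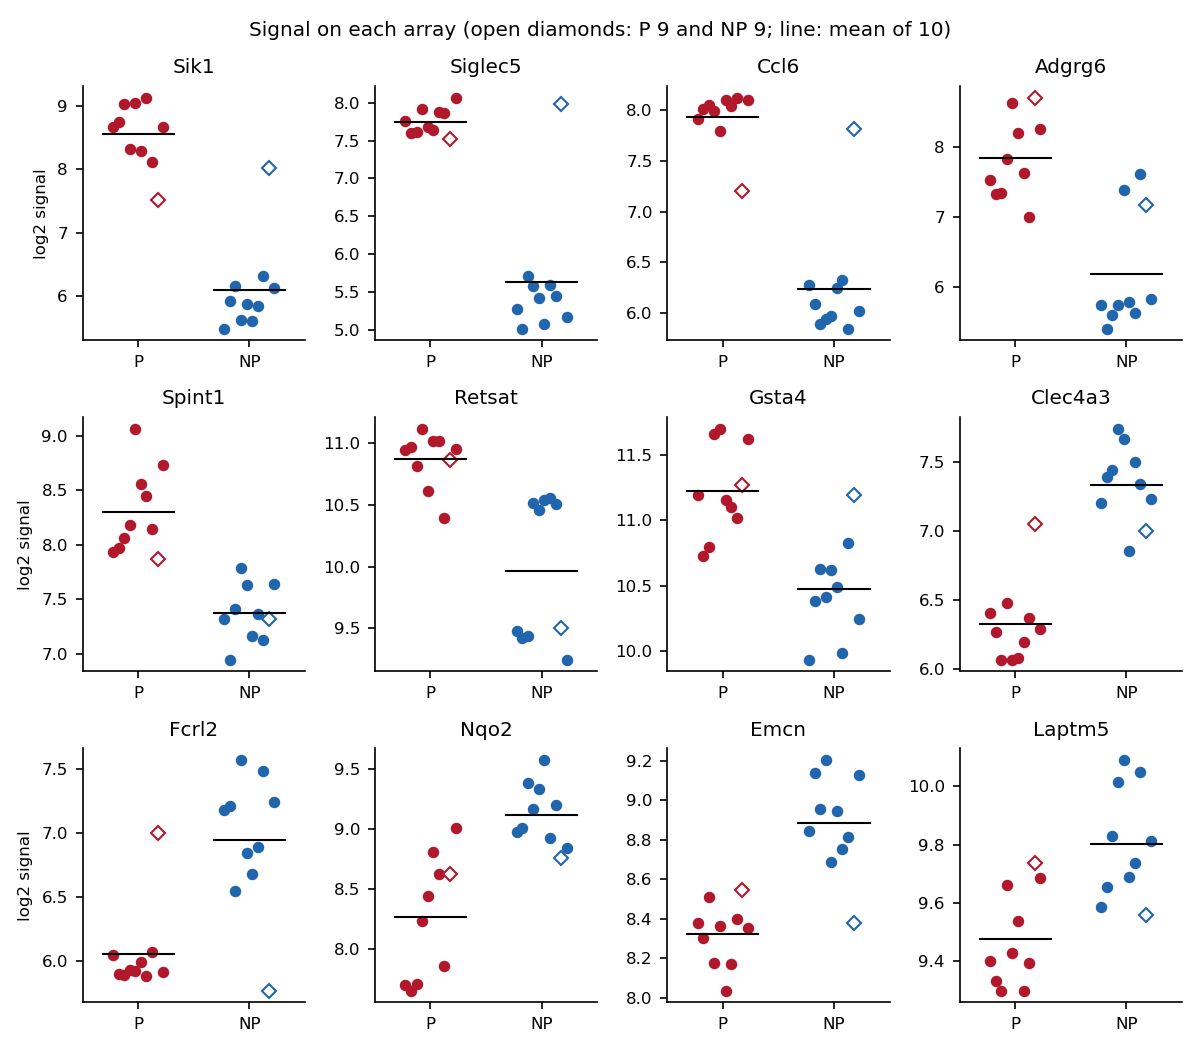
Log2 signal (y axis) of 12 genes on each of the 20 arrays, P left of NP, with a line at the mean of 10 arrays and open diamonds for P 9 and NP 9. In Sik1, Siglec5 and Ccl6 the NP 9 diamond lies with the P arrays, and in Retsat the NP arrays fall into a lower and an upper group.

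Among receptors and chemokines of myeloid cells, 29 genes were measured and 5 were called, 2 higher (Siglec5 and Ccl6) and 3 lower (Clec4a3, Fcrl2 and Fcgr1a) in P rats, with a median difference of 0.00. With 1 probe set per gene, 133 of all 14217 genes (0.935%) were called. The chemokine Ccl6, made by rodent macrophages and microglia, had a lowest, median and highest signal of 7.21, 8.03 and 8.13 in P rats and of 5.84, 6.05 and 7.82 in NP rats. It rose 3.25-fold (1.70 ± 0.19, adjusted p = 0.000184). Without P 9 and NP 9 the difference was 1.96 (adjusted p = 1.42e-12), and the P arrays lay within 7.80 to 8.13 and the NP arrays within 5.84 to 6.32. Clec4a3, a C-type lectin receptor, ran the other way, with 6.07, 6.28 and 7.05 in P rats and 6.85, 7.37 and 7.75 in NP rats. It fell 2.01-fold (-1.01 ± 0.12, adjusted p = 0.000262, and -1.13 without both arrays, adjusted p = 9.97e-07), and its highest P array was the one labelled P 9.

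Fcrl2, a receptor of the Fc receptor-like family, had 5.88, 5.92 and 7.002 in P rats and 5.76, 7.04 and 7.58 in NP rats. The highest P array was P 9 and the lowest NP array NP 9, so that the difference was -0.89 with all arrays (adjusted p = 0.0189) and -1.13 without them (adjusted p = 6.57e-06). Fcgr1a, the high-affinity IgG receptor, differed by -0.28 (adjusted p = 0.0443) and by -0.33 without both arrays (adjusted p = 0.0124). Without both arrays the list had 3 called higher and 4 called lower, 24.1% against 1.96% of all genes. These 2 were chosen for mention after their values were seen: Ccl9, the chromosomal neighbour of Ccl6, at 0.76 (adjusted p = 0.0425), and Tlr7, a sensor of single-stranded RNA, at -0.31 (adjusted p = 0.0238).

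Most microglial markers had lower signals in P rats. Of 16 measured, 15 had a difference below 0, and the median was -0.24, against 0.00 over all genes. Laptm5, a lysosomal protein of cells of the haematopoietic lineage, was the marker called with all 20 arrays. It had a lowest, median and highest signal of 9.30, 9.41 and 9.74 in P rats and of 9.56, 9.77 and 10.09 in NP rats, a difference of -0.33 ± 0.08 (adjusted p = 0.0491). In all, 11 of the 16 had an unadjusted p under 0.05, and Cd68 alone lay above 0, at 0.17. Without both arrays 5 of the 16 were called, all lower, against 1.96% of all genes. The added markers were picked for mention by their values: Trem2, a lipid receptor of microglia (-0.47, adjusted p = 0.006), Ctss, the lysosomal protease cathepsin S (-0.37, adjusted p = 0.0065), Aif1, the actin-binding protein Iba1 (-0.45, adjusted p = 0.0135), and Csf1r, the receptor on which microglial survival depends (-0.38, adjusted p = 0.0258).

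The mean over the microglial markers was 8.95 ± 0.185 in P rats and 9.16 ± 0.156 in NP rats (SD, n = 10 each), so the shift of -0.21 was about as large as the spread within a line. The range was 8.79 to 9.32 in P rats, with P 9 the highest, and 8.95 to 9.42 in NP rats, with NP 9 among the lower values at 9.005. In such tissue samples fewer cells of a type and less RNA per cell cannot be told apart. The mean over blood cell markers was 7.32 ± 0.177 in P rats and 7.17 ± 0.0872 in NP rats, with 0 of 10 genes called by limma and 2 at an unadjusted p under 0.05. Oligodendrocyte markers averaged 11.78 in P rats and 11.83 in NP rats, and astrocyte markers 12.14 in both. Calls with the microglial mean as a covariate are given below. Whether the microglial shift has a part in the differences of other genes was not tested.

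Of 25 measured genes of antigen presentation and the immunoproteasome, 1 was called with all arrays, Psmb8, an immunoproteasome subunit, at -0.45 (adjusted p = 0.025, and -0.54 without both arrays, adjusted p = 0.00138). That is 4%, against 0.935% of all genes. The median of the list was -0.09, and 8 of its genes (32%) had an unadjusted p under 0.05, against 7.43% of all genes. Without both arrays 3 were lower and 1 was higher, 16% against 1.96%. Named for their values, Cd74, the chaperone of class II molecules, differed by -0.84 (adjusted p = 0.0423), RT1-DMb, a subunit of the class II peptide loader, by -0.39 (adjusted p = 0.0021) and the class I gene RT1-T24-4 by 2.09 (adjusted p = 0.0425). The RT1 genes are a family of close copies, so a probe set may read more than 1 of them. RT1-T24-3, the neighbour of RT1-T24-4 among the measured genes, ran the other way without both arrays (-1.24, adjusted p = 0.0478).

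Of 41 interferon-responsive genes, 0 were called by limma and 9 (21.95%) had an unadjusted p under 0.05, against 7.43% of all genes. Sp110, a nuclear body protein induced by interferon, had a lowest, median and highest signal of 6.77, 7.33 and 7.71 in P rats and of 6.17, 6.36 and 7.40 in NP rats on one of its probe sets. That probe set was higher in P rats (0.77, adjusted p = 0.0086), and so was another (0.49, adjusted p = 0.0381), while the brightest, which stands for the gene in the list, differed by 0.80 (adjusted p = 0.142, or 0.0193 without both arrays). Of 21 measured genes of innate inflammation and complement, 0 were called with all arrays and 2 (9.52%) without both, against 1.96% of all genes. Among them, the complement component C3 had 7.34, 7.90 and 9.42 in P rats and 8.36, 8.92 and 9.69 in NP rats, a difference of -0.84 (adjusted p = 0.149). Without both arrays it fell by 1.04 (adjusted p = 0.0191), and Nfkb1, a subunit of NF-kappa B, by 0.35 (adjusted p = 0.00308).

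Of 45 measured genes of glutathione and antioxidant enzymes 1 was called, Gsta4 (2.22%, against 0.935% of all genes), and the median of the list was 0.00. Gsta4, the glutathione transferase that clears the lipid peroxidation product 4-hydroxynonenal, had a lowest, median and highest signal of 10.72, 11.17 and 11.70 in P rats and of 9.94, 10.45 and 11.20 in NP rats. It was 1.68-fold higher in P rats (0.75 ± 0.15, adjusted p = 0.0145, and 0.83 without both arrays, adjusted p = 0.00294), and NP 9, at 11.20, was the highest NP array. Named outside that list, 2 enzymes and a transporter were lower in P rats. Nqo2, a quinone reductase, had 7.65, 8.34 and 9.01 in P rats and 8.76, 9.09 and 9.58 in NP rats, 1.81-fold lower in P rats (-0.86 ± 0.17, adjusted p = 0.0123, and -0.94 without both arrays, adjusted p = 0.00565). Fmo5, a flavin monooxygenase, differed by -0.66 (adjusted p = 0.0115) and by -0.80 without both arrays (adjusted p = 2.07e-05). Slc52a2, a riboflavin transporter, differed by -1.03 on 1 probe set (adjusted p = 0.0092, and -1.17 without both arrays) and by 0.05 on the other. Of 25 measured genes of alcohol and aldehyde metabolism 0 were called by limma, 1 had an unadjusted p under 0.05 and the median difference was -0.01.

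Mitochondrial genes differed little. Of 65 measured genes of oxidative phosphorylation, 51 had a difference above 0 with a median of 0.02, and 1 was called (1.54%, against 0.935% of all genes). It was Uqcrfs1, the Rieske protein of complex III, at 0.34 (adjusted p = 0.0192, and 0.38 without both arrays, adjusted p = 0.00466). Its signal lay between 12.54 and 12.96 in P rats and between 12.14 and 12.69 in NP rats. Of 36 proteasome genes 35 had a difference above 0, yet the differences ran only from -0.01 to 0.09 and 0 were called by limma (0 at an unadjusted p under 0.05). Hspa9, the mitochondrial Hsp70, was higher in P rats on 1 of its 4 probe sets (0.99, adjusted p = 0.00902, and 1.03 without both arrays, adjusted p = 0.00713), while the others differed by 0.04, -0.01 and 0.06.

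Among 40 DNA repair genes 1 was called higher and 1 lower, which is 5% against 0.935% of all genes. Lig4, the ligase of non-homologous end joining, was higher in P rats on both of its probe sets, by 0.77 and 0.50, and by 0.90 and 0.56 without both arrays (adjusted p = 4.7e-07 and 1.37e-05). On the first its lowest, median and highest signals were 8.60, 8.90 and 9.13 in P rats and 7.87, 7.99 and 8.96 in NP rats, and the high NP array was NP 9. Ercc4, a nuclease of excision repair, differed by -0.48 (adjusted p = 0.0333) and by -0.56 without both arrays (adjusted p = 0.00664). Kif15, a kinesin of dividing cells, had 5.46, 5.71 and 6.58 in P rats and 5.89, 6.95 and 7.51 in NP rats and was 1.997-fold lower in P rats (adjusted p = 0.00727, and a difference of -1.18 without both arrays, adjusted p = 8.65e-05).

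Vessel and matrix genes included 2 of the lower calls. Emcn, a sialomucin of capillary and venous endothelium, had a lowest, median and highest signal of 8.04, 8.36 and 8.55 in P rats and of 8.38, 8.89 and 9.21 in NP rats. The lines overlapped only through NP 9 at 8.38, and P 9 at 8.55 was the highest P array. The difference was -0.56 ± 0.09 (adjusted p = 0.00261), or -0.64 without P 9 and NP 9 (adjusted p = 4.48e-05). Emcn was the 1 called gene of 15 endothelial markers (6.67%, against 0.935% of all genes), whose median was 0.06. Ogn, a small leucine-rich proteoglycan, had 5.28, 6.19 and 7.24 in P rats and 6.47, 7.53 and 7.77 in NP rats on the probe set with the largest difference (-1.11 ± 0.23, adjusted p = 0.0144, and -1.30 without both arrays, adjusted p = 0.00136). A second probe set of Ogn differed by -0.49 (adjusted p = 0.0301), and the remaining 2 by 0.85 (adjusted p = 0.0527) and 0.06. Without both arrays the collagen Col3a1, named for its value, was also lower (-0.36, adjusted p = 0.0324). Of 17 markers of pericytes, smooth muscle and meninges, 1 (5.88%) was called with all arrays, Ogn, against 0.935% of all genes. Without both arrays 2 (11.8%) were called, against 1.96%.

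Genes of neurotransmission were close to the background or below it. With limma, 0 of 35 glutamate receptor and transporter genes were called (2 at an unadjusted p under 0.05), 0 of 22 GABA genes (1), 0 of 38 genes of dopamine, serotonin and noradrenaline (1), 0 of 10 opioid genes (0), 0 of 49 neuropeptide genes (2) and 0 of 17 cholinergic genes (1). Over all genes, 1056 of 14217 (7.43%) had an unadjusted p under 0.05. The medians of these lists lay between -0.01 and 0.04. Without both arrays the lists again had 0 called. Among 40 genes of cyclic AMP and kinase signalling and 38 of potassium channels, 1 each was called without both arrays and 0 with all of them: Adcy9, an adenylyl cyclase, at 0.98 (adjusted p = 0.0181), and Kcnip3, a calcium sensor of potassium channels, at -0.42 (adjusted p = 0.0219). That is 2.5% of the cyclic AMP list and 2.63% of the potassium channel list, against 1.96% of all genes. Of 966 measured genes in 41 lists, 13 (1.346%) were called on their brightest probe set, against 0.935% of all genes, and 28 without both arrays.

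**Figure D4:**
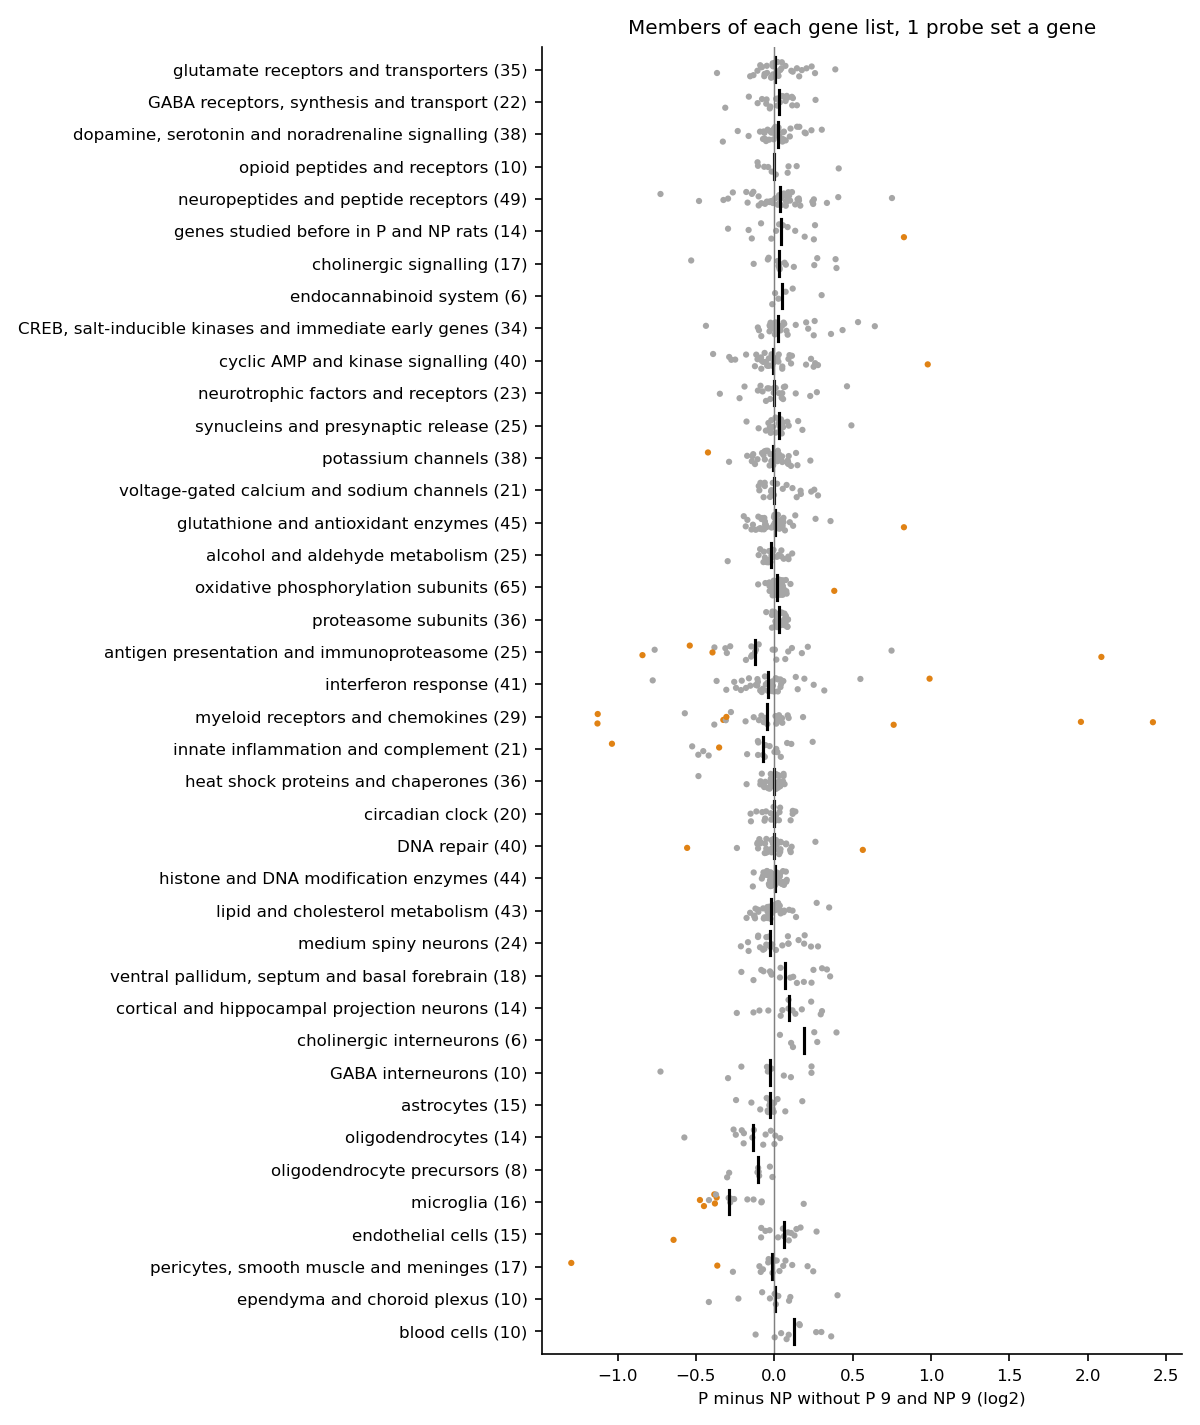
Difference P minus NP (log2, x axis) without P 9 and NP 9 for each measured gene of the lists, 1 row per list, with called genes in orange and the median as a black bar. In the microglial row 15 of 16 points lie left of 0, with a median of -0.29, while the neurotransmitter rows centre near 0.

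Of 17 genes that earlier work on P and NP rats had studied, 14 were measured, and Gsta4 was the 1 called (7.14%, against 0.935% of all genes). Npy, a peptide that lowers anxiety, had a lowest, median and highest signal of 10.35, 12.63 and 12.99 in P rats and of 11.68, 12.77 and 13.20 in NP rats, a difference of -0.44 ± 0.29 (adjusted p = 0.938). Grm2, the mGlu2 receptor, had 6.60, 7.28 and 7.87 in P rats and 6.62, 7.04 and 7.26 in NP rats, a difference of 0.28 (adjusted p = 0.554). The dopamine receptor Drd2 differed by 0.05, the opioid receptor Oprm1 by 0.08, the serotonin receptors Htr1a and Htr1b by 0.08 and -0.06, and Glp1r by 0.06. A missed threshold does not show equal levels.

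Probe sets of the same gene often disagreed. The called probe sets with 1 symbol belonged to 169 genes, of which 74 had more than 1 probe set. In 64 of these only 1 was called, in 7 all were, and in 44 all probe sets had the same sign. For 2 genes probe sets were called in both directions. Jhy, a gene that in mouse is needed for normal ependymal cilia, was higher in P rats (lowest, median and highest 8.23, 8.53 and 8.86, against 6.96, 7.16 and 8.63 in NP rats, adjusted p = 0.000466, or 2.84e-09 without both arrays). Ccdc77, a coiled-coil protein of centrosomes, was higher on both of its probe sets (1.43 and 1.11, adjusted p = 0.00511 and 0.0121, the first 1.67 without both arrays, adjusted p = 4.41e-05). Tiparp, an ADP-ribosyltransferase induced by the aryl hydrocarbon receptor, was higher on 1 probe set (1.15, adjusted p = 0.0316, and 1.45 without both arrays, adjusted p = 7.42e-05) and differed by 0.24 on the other.

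Some probe sets parted animals within a line. Retsat, which reduces retinol to dihydroretinol, had a lowest, median and highest signal of 10.39, 10.94 and 11.12 in P rats and of 9.24, 9.98 and 10.55 in NP rats (0.90 ± 0.19, adjusted p = 0.0151, and 0.85 without P 9 and NP 9, adjusted p = 0.0246). Among NP rats, NP 4 to NP 8 lay between 10.46 and 10.55, and NP 1, NP 2, NP 3, NP 9 and NP 10 between 9.24 and 9.51, with no array between. The P arrays held no such low group. The line means of the other pairs lay on both sides, at 9.72 in HAD1 and 9.75 in LAD1, and at 11.07 in AA and 11.13 in ANA. The unnamed probe set 1395703_at parted the P arrays instead: 6 P arrays lay between 7.72 and 8.04 and the other 4 between 10.01 and 10.36, and every NP array lay above 10.67 (difference -2.19, adjusted p = 0.00337).

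Of the 326 called probe sets 147 carry no or several symbols, and the largest differences of all were among them. Probe set 1378670_at had a lowest, median and highest signal of 6.82, 8.52 and 9.04 in P rats and of 4.77, 5.07 and 8.92 in NP rats (2.92, adjusted p = 0.00119). Probe set 1375815_at had 7.60, 8.38 and 8.85 in P rats and 4.98, 5.46 and 8.66 in NP rats (2.65, adjusted p = 0.000406). On both the high NP array was the one labelled NP 9. Probe set 1397153_at was lower in P rats, with 5.23, 5.55 and 7.62 in P rats and 5.496, 8.44 and 8.69 in NP rats (-2.45, adjusted p = 0.00119).

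Some called genes were neighbours on the chromosome. Of 14205 genes that could be placed in order, 169 (1.19%) were called, and 12 of these (7.10%) had a called neighbour, in 6 runs of 2. Here the probe set with the smallest adjusted p stood for each gene, not the brightest. Most genes have a neighbour on each side, so 1.19% is not the direct yardstick for 7.10%. The neighbours Serpinb6a, a serpin, and Nqo2 were both lower in P rats (-0.43 and -0.86), as were Chd1l, a chromatin remodeller, and Fmo5 (-0.49 and -0.66). Lxn and Rarres1, related genes of carboxypeptidase inhibitor type, were both higher (0.36 and 0.58), as were Mcts2 and the transcriptional inhibitor Id1 (0.40 and 0.30) and Tceal5 and Bex1 (0.57 and 0.18). Siglec5 and Zfp715, a zinc finger gene, moved in opposite directions (2.127 and -0.35). All 12 were called in the same direction without both arrays, with differences of 0.20 in Bex1 to 2.42 in Siglec5 in size. With all arrays the other probe set of Mcts2 differed by 0.08 and that of Chd1l by -0.27, and neither was called.

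The differences were set against those of the other line pairs. Of the 326 probe sets, 180 were called in no other pair. The matching share of all probe sets was not counted, so this number does not show differences particular to P/NP. The number called in both pairs with the same and with the opposite sign was 9 and 12 for HAD1/LAD1, 31 and 44 for HAD2/LAD2, 20 and 27 for AA/ANA and 28 and 42 for sP/sNP. The pairs share no animals, and they called 1.2%, 4.6%, 2.35% and 12.9% of probe sets in the same order. A contrast of the P minus NP difference with the mean difference of the other 4 pairs called 759 probe sets (2.45%), and 252 of the 326 were among them. Since the contrast holds the same P minus NP differences that gave the 326 calls, much of this overlap is built in. The contrast called 1026 (3.31%) without P 9 and NP 9, and 1235 (3.98%) without 8 arrays that stood off their lines, from all pairs but HAD2/LAD2. Over the 10 line means the P mean was the highest or lowest in 94 of the 326 (28.83%) and the NP mean in 85 (26.07%), against 18.16% and 16.11% of all probe sets. The 326 were called for their P minus NP difference, which by itself favours outlying P or NP means. The higher shares are therefore no separate evidence.

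Among the 12 contrast genes the other pairs ran in various directions. Siglec5 was 3.07 higher in P/NP than in the mean of the other pairs (adjusted p = 1.13e-14), and was lower in HAD2 than LAD2 (-2.04) and in AA than ANA (-1.37), both called. Its line mean was lowest in NP at 5.63, against 7.75 in P, and was 8.37 in sP and 8.49 in sNP. Sik1 had its highest line mean in P at 8.55, followed by HAD2 at 7.30, with NP at 6.10 and sP lowest at 5.01, and no other pair was called (contrast 2.46, adjusted p = 2.77e-16). Ccl6 was higher in P (7.94) than NP (6.24) and likewise in sP (8.55) than sNP (6.01), a called difference of 2.54 in sP/sNP, so that its contrast was smaller (0.92, adjusted p = 0.0107).

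Gsta4 was lower in the preferring line of every other pair, by -0.86, -0.55, -0.66 and -0.36 in HAD1/LAD1, HAD2/LAD2, AA/ANA and sP/sNP, all called (contrast 1.36, adjusted p = 1.48e-09). Kif15 was higher in HAD1 (1.78) and HAD2 (2.00) than in their low-drinking lines and lower in sP than sNP (-0.53), all 3 called, while AA and ANA differed by -0.13 (contrast -1.78, adjusted p = 5.45e-11), and its P mean of 5.89 was the lowest of the 10. Clec4a3 was higher in HAD1 than LAD1 (0.44) and in sP than sNP (0.90), both called (contrast -1.38, adjusted p = 6.65e-13). Rnf151, a RING finger gene, was higher in P rats by 0.82 on 1 probe set and by 0.03 on the other, and on the first differed by between -0.11 and 0.08 in the other pairs (contrast 0.83, adjusted p = 8.91e-11). Nqo2 was higher in both P (8.26) and NP (9.12) than in any other line, the next being LAD1 at 7.85.

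**Figure D5:**
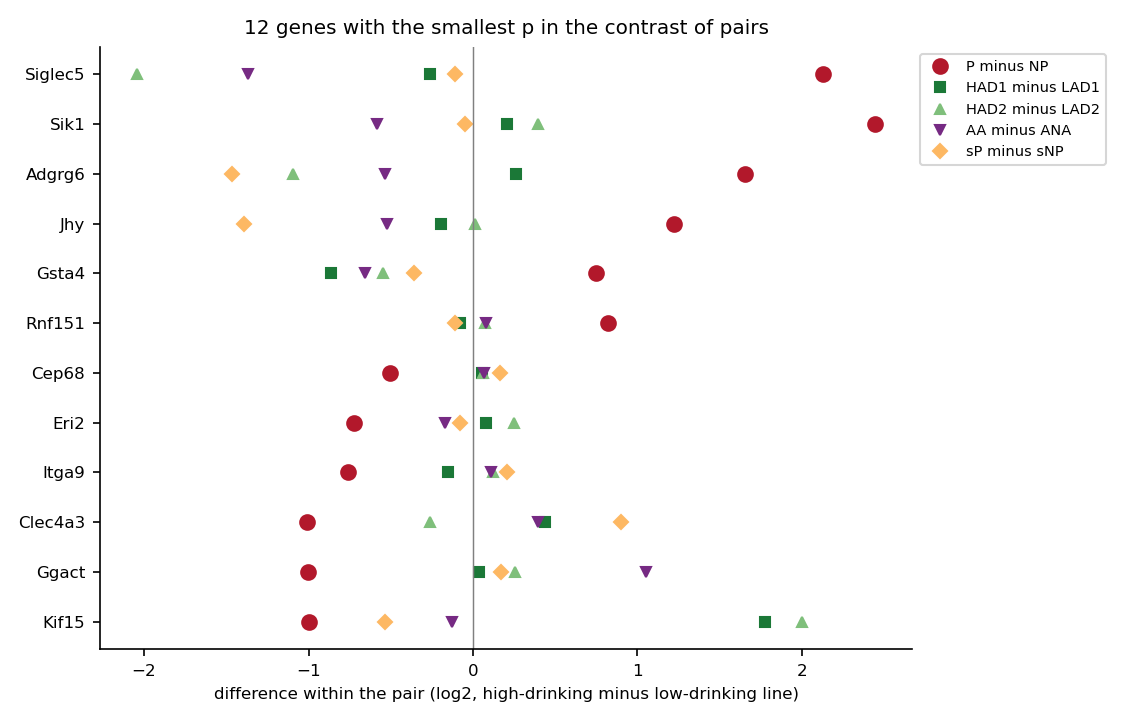
Difference of the preferring minus the non-preferring line (log2, x axis) in P/NP and the other 4 pairs for the 12 genes with the smallest adjusted p in the contrast, 6 in each direction. Siglec5 lies at 2.127 in P/NP and at -2.04 in HAD2/LAD2, whereas Rnf151 lies between -0.11 and 0.08 outside P/NP.

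The calls of some named genes rested on the setting. Leaving out a single array ended the call of Bex1, Camkk2, Ercc4, Fcgr1a, Ggact, Id1, Laptm5, Mcts2, Psmb8, Rnf182, Sdf4, Tiparp and Tmem205 for at least some of the 20 arrays, with adjusted p of at most 0.0996. The call of Tmem205 was also lost without both arrays (adjusted p = 0.0555). With the microglial mean as a covariate 29 of the 48 named calls were lost, among them Trio, Camkk2, Crebl2, Rab27b, Fcrl2, Nqo2, Ogn, Hspa9 and Kif15. The microglial mean itself differed between the lines (-0.21), so adjusting for it can also remove line difference. With the Gapdh 3' minus 5' signal as a covariate 21 were lost, among them Gsta4, Fcrl2, Rab27b, Ogn and Plac8. That signal, a measure of RNA integrity and labelling, averaged 0.108 in P rats and 0.140 in NP rats. Of 38 named calls without P 9 and NP 9, 7 were lost with the microglial mean and 4 with the Gapdh signal. Sik1, Siglec5, Ccl6, Adgrg6, Jhy, Clec4a3, Emcn and Retsat kept their calls with either covariate.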

How the data were processed

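RNA of the nucleus accumbens shell had been extracted with Trizol and RNeasy columns, and 25 ng was amplified in the Affymetrix 2-cycle protocol and labelled with biotin, per the labels' protocols. The deposited values are log2 signals that the authors had summarised with RMA, per the submitters' processing notes (version not given in the sources used here), and they were used as deposited. Array medians ran from 7.94 to 8.01 over the 20 arrays. The number of arrays limits the precision.

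Of 31099 probe sets, 57 controls were left out. Of the remaining 31042, 20826 carry 1 symbol, 436 several and 9780 none, which names 14217 genes. Symbols came from the platform annotation, updated through a RefSeq gene table of build GRCr8, which otherwise served for neighbours and promoters only.

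P was compared with NP in limma 3.58.1 (R 4.3.3; lmFit and eBayes, no trend, two-sided, Benjamini-Hochberg adjustment). The contrast with the other pairs was fitted over all 97 arrays with 1 mean per line. Tables and figures used Python 3.11.15, pandas 2.3.3, scipy 1.17.1 and matplotlib 3.10.9. Scripts were tested on simulated data with known changes. Alternatives were a replicate block, an intensity trend, a robust fit, array weights, quantile normalization, median centring, brighter probe sets only, 3 covariates, all lines in the fit and the omission of each array. Gene lists use the brightest probe set with 1 symbol per gene.

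Named genes were the 12 largest called differences in each direction with all arrays, called genes whose lines did not overlap, the 12 largest in each direction among non-overlapping calls without P 9 and NP 9, called list members (otherwise up to 2 with the smallest p), genes studied before in these lines, the 6 with the smallest adjusted p per direction in the contrast with the other pairs, and members of the longest runs of called neighbours. Members, lists and rules were chosen with earlier results of these data known. Animal numbers recur in both lines, and the labels do not call them pairs.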

Additional observations from a re-analysis of the deposited data

Results flagged for a closer look

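Single arrays stood far from the rest of their line in 26 of 136 groups of 10 arrays looked at, 18 times the array labelled NP 9, 7 times P 9 and once P 3. Chance alone flags about 1 in 20 groups that were not picked for such gaps. Part of these genes were named because their lines did not overlap without P 9 and NP 9. That rate is therefore no yardstick for flags on these 2 arrays. The measure is the gap to the nearest other array as a share of the line's whole range. On the line score it was 0.7498 for P 9 and 0.8613 for NP 9. For P 9 it was 0.8346 in Fcrl2, 0.6491 in Tceal5, 0.6399 in Ccl6, 0.5768 in Clec4a3, 0.5246 in Nat8f3 and 0.4692 in Trio. For NP 9 it was 0.875 in Zkscan5, 0.7796 in Ccdc77, 0.7756 in Lsg1, 0.7661 in Siglec5, 0.7584 in Ccl6, 0.7441 in Jhy, 0.7233 in Chd1l, 0.6769 in Cep68, 0.6699 in Ggact, 0.6697 in Sik1, 0.6386 and 0.624 in the 2 probe sets of Lig4, 0.6336 in Sp110, 0.5997 in Ankrd36, 0.535 in Rnf151, 0.5249 in Dmxl1 and 0.4812 in Pls1. For P 3 it was 0.5744 in Ppih. Many of these genes were named for their line difference, and the 50 probe sets of the score were chosen for it, so the flags on P 9 and NP 9 overlap in what they measure.

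The difference between the lines differed between P/NP and the mean of the other 4 pairs, in a limma contrast over all lines, for the 12 genes with the smallest adjusted p. P minus NP exceeded that mean by 3.075 in Siglec5, 2.455 in Sik1, 2.364 in Adgrg6, 1.749 in Jhy, 1.356 in Gsta4 and 0.8292 in Rnf151. It lay below that mean in Kif15 (-1.776), Ggact (-1.384), Clec4a3 (-1.38), Itga9 (-0.8319), Eri2 (-0.7457) and Cep68 (-0.5925). In P minus NP the other probe set of Ggact differed by 0.06, that of Eri2 by 0.10 and that of Itga9 by -0.06, none of them called. All 12 genes stayed past the threshold of the contrast without P 9 and NP 9, without the 8 departing arrays and without any 1 of the other pairs.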

How the results depend on the processing

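The count of called probe sets moved more than the differences themselves. With all 20 arrays it was 326. It was 562 with array weights, 176 over the brighter probe sets alone (15521 tested), 180 with the Gapdh covariate, 933 with the tissue marker covariate, 105 with the microglial covariate, 759 with all lines in the fit, 197 with the replicate block and 661 without P 9 and NP 9. Leaving out 1 array gave 240 to 552, the highest without NP 9. Without P 9 and NP 9 the count of 661 became 1025 with array weights, 368 over the brighter probe sets, 1588 with the tissue marker covariate, 322 with the microglial covariate and 1025 with all lines, and leaving out a further array gave 568 to 683. The contrast with the other pairs gave 1235 calls without 8 departing arrays. The other alternatives run lay within 1.5 times of each count. The causes were not tested.

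The microglial mean differed by -0.26 without P 9 and NP 9, a larger size than with all arrays. The means of astrocyte and choroid plexus markers changed sign there, to -0.0288 and -0.0117, as did the mean of spiny neuron markers, to 0.0079, against -0.144 with all arrays. Of listed genes 28 were called without P 9 and NP 9, against 13. Animal numbers recur in both lines. Deviations of same-numbered arrays correlated above 0.1 for 6 of the 10 numbers and below it for 4, over a range of -0.591 to 0.774, and 4 of 10 P arrays correlated best with the NP array of their own number. Since not every number did, the samples were taken to share only a number, and the block gave 693 calls without P 9 and NP 9, against 661 without the block. None of the 48 named calls turned its direction under an alternative, and the number of them lost was 29 with the microglial covariate, 23 with the block and 21 with the Gapdh covariate. Without P 9 and NP 9, 7 of 38 named calls were lost with the microglial covariate and 4 with the Gapdh covariate. With the block all 38 held there. The number of arrays, and the 2 that depart from their labels, limit what 1 pair of lines can show.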
